A study of Homo sapiens and Mus musculus with 19 samples.

Results

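Single cells of 2 human lines were compared for unmethylated, methylated (5mC) and hydroxymethylated (5hmC) cytosine at CCGG sites. Of the 19 libraries in the study, 10 belong to this comparison, 5 from single HepG2 cells and 5 from single H1ES cells, chosen by their labels alone, and no bulk library was used. HepG2 is an aneuploid line established from a liver tumour, labelled as a hepatocellular carcinoma line, and H1ES is a human embryonic stem cell line. No treatment is given for either. All cells were stained with Calcein-AM, a dye of living cells, and placed singly in tubes before the assay. In that assay the enzyme HpaII cuts unmethylated CCGG, and later digests with MspI, which cuts CCGG whether or not it is methylated, mark hydroxymethylated and methylated sites with tags of their own. Each tag therefore reports the kind of cytosine at 1 site. How tags were counted is not given, so whether 2 tags at a site stem from 2 DNA molecules is not known. The labels name no culture, plate or day, so the 5 cells of a line are 5 cells of 1 sample. No p-value is given, every comparison is a description of these 10 cells, and intervals and limits on shares cover counting error only.

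DNA methylation is placed on CpG dinucleotides by DNMT3A and DNMT3B and copied at each division by DNMT1 with UHRF1, and TET enzymes oxidise 5mC to 5hmC. Most of the genome is methylated in embryonic stem cells, except for CpG islands, which are dense clusters of CpG at many gene starts. Many tumour lines are known for long stretches of reduced methylation over regions with few active genes, together with methylation of CpG islands that are free of it in normal cells. In mammals 5hmC is scarce next to 5mC and is more frequent in embryonic stem cells than in most cancer lines.

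The contrast between the lines at single gene starts is seen in 4 sequences, 2 whose start carried more unmethylated tags in HepG2 and 2 whose start carried fewer. They run 5′ to 3′ on the gene's strand and cover 250 bases before to 50 after the start (RefSeq, GRCh38.p14), and capitals mark the CCGG sites at which the assay can read a cytosine.
HNF4A, chr20:44355449-44355748, plus strand: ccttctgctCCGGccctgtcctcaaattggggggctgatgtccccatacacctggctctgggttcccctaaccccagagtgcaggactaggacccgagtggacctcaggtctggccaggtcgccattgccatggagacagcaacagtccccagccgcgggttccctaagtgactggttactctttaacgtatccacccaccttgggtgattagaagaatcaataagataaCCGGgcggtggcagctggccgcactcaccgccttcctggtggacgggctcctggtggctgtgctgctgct
SLC25A34, chr1:15736008-15736307, plus strand: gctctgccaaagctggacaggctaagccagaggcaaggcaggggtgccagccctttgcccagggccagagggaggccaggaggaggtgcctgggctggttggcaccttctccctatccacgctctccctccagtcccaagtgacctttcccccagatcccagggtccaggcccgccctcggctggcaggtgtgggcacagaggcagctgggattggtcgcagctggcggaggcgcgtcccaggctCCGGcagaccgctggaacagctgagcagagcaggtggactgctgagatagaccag
HAS3, chr16:69107290-69107589, plus strand: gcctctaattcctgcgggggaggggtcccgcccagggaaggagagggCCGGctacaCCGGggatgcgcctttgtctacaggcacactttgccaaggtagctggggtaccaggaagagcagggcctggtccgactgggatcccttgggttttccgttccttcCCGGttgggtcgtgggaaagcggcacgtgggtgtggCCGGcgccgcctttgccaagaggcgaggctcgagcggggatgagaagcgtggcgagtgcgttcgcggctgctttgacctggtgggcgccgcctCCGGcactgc
GPAM, chr10:112183716-112184015, minus strand: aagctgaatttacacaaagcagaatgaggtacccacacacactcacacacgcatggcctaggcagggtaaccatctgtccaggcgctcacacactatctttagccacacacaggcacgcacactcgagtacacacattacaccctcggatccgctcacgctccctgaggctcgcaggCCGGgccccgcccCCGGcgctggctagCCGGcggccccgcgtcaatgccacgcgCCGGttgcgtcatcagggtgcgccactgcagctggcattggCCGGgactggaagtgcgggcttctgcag

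HNF4A encodes a nuclear receptor that controls many hepatocyte genes. Its site 240 bases before the start gave 12 unmethylated of 12 tags in 5 HepG2 cells, against 0 of 11 in 3 H1ES cells, where all 11 were 5mC. Its site 19 bases before the start gave 7 unmethylated of 12 tags in HepG2 cells, against 0 of 10 in H1ES cells. At SLC25A34, a mitochondrial carrier gene, the only site gave 12 unmethylated of 12 tags in 3 HepG2 cells, against 0 of 4 in 2 H1ES cells, with 3 tags of 5mC and 1 of 5hmC. The other pair showed the opposite order. At HAS3, a hyaluronan synthase gene, the site 41 bases after the start gave 0 unmethylated of 5 tags in HepG2 cells, against 6 of 6 in H1ES cells. At GPAM, which encodes an enzyme that begins glycerolipid synthesis, the site 72 bases before the start gave 0 unmethylated of 3 tags in HepG2 cells, against 5 of 6 in H1ES cells. The other 4 CCGG of the HAS3 sequence and the other 4 of the GPAM sequence had no tag in any of the 10 cells.

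The HepG2 cells held 526207, 577060, 2455908, 611318 and 2434482 tags (cells 1 to 5), and the H1ES cells held 873604, 1100606, 857397, 1543724 and 757767. HepG2 cells 3 and 5 were thus the deepest, with tags at 46.8% and 46.2% of the 2211146 autosomal sites, against 18.4% to 20.6% in the other HepG2 cells and 25.01% to 38.6% in H1ES cells. Of tagged sites, 8.49% and 8.95% held over 4 tags in HepG2 cells 3 and 5. In the other HepG2 cells 0.139% to 0.229% did, and in H1ES cells 0.161% to 2.02%. The cause of this was not tested. Means over cells weight each cell equally. The label of HepG2 was read against its known extra chromosomes: relative to the mean H1ES cell, HepG2 cells had 1.62- to 1.77-fold the share of tags on chromosome 20, 1.32- to 1.45-fold on chromosome 16 and 1.16- to 1.35-fold on chromosome 2, and single H1ES cells stayed between 0.97 and 1.02 on every autosome. The first 10 Mb windows of chromosome 14 rich in tags, from 20000001 to 40000000, stood at 1.79 to 2.68 in HepG2 cells. On chromosome 11 from 80000001 to 110000000, HepG2 cell 3 stood at 1.11 to 1.13 and the other 4 HepG2 cells at 0.67 to 0.88. The 23 sites of mitochondrial DNA, which is generally regarded as nearly free of CpG methylation, gave 10.6%, 9.69%, 9.43%, 9.21% and 18.1% of tags as 5mC in HepG2 cells 1 to 5, against 5.87%, 9.75%, 9.54%, 9.72% and 11.3% in H1ES cells 1 to 5. Their 5hmC share was at most 0.0442% in HepG2 cells and 0.0998% in H1ES cells. HepG2 cell 5 stood apart in this measure. How much of the 5mC share elsewhere comes from unmethylated sites read as 5mC was not tested.

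Genome-wide, HepG2 cells carried far more unmethylated CCGG, less 5mC and less 5hmC than H1ES cells. The unmethylated share of autosomal tags was 36.9%, 36.2%, 40.4%, 37.2% and 36.6% in HepG2 cells 1 to 5, against 4.82%, 4.91%, 4.21%, 4.12% and 4.49% in H1ES cells 1 to 5. The line means were 37.5% and 4.51%, a difference of 33.0 percentage points. The 5mC share averaged 62.2% in HepG2 cells (59.3% to 63.4%) and 94.1% in H1ES cells (93.6% to 94.4%). For 5hmC the shares were 0.344%, 0.350%, 0.266%, 0.325% and 0.307% in HepG2 cells, against 1.20%, 1.45%, 1.53%, 1.48% and 1.51% in H1ES cells, and the H1ES mean was 4.51-fold the HepG2 mean. The groups did not overlap for any of the 3 kinds, and each gap was larger than the range within either line. The lowest HepG2 5hmC share was above the highest mitochondrial 5hmC share. In these uncorrected shares HepG2 cell 5, which had the highest mitochondrial 5mC share, lay inside the range of the other HepG2 cells for all 3 kinds. When each cell's unmethylated share was divided by its mitochondrial one, the means became 42.4% in HepG2 and 4.97% in H1ES. HepG2 cell 5 then had the highest unmethylated share, 44.8%, beside 44.6% in cell 3 and 40.1% to 41.3% in cells 1, 2 and 4.

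**Figure D1:**
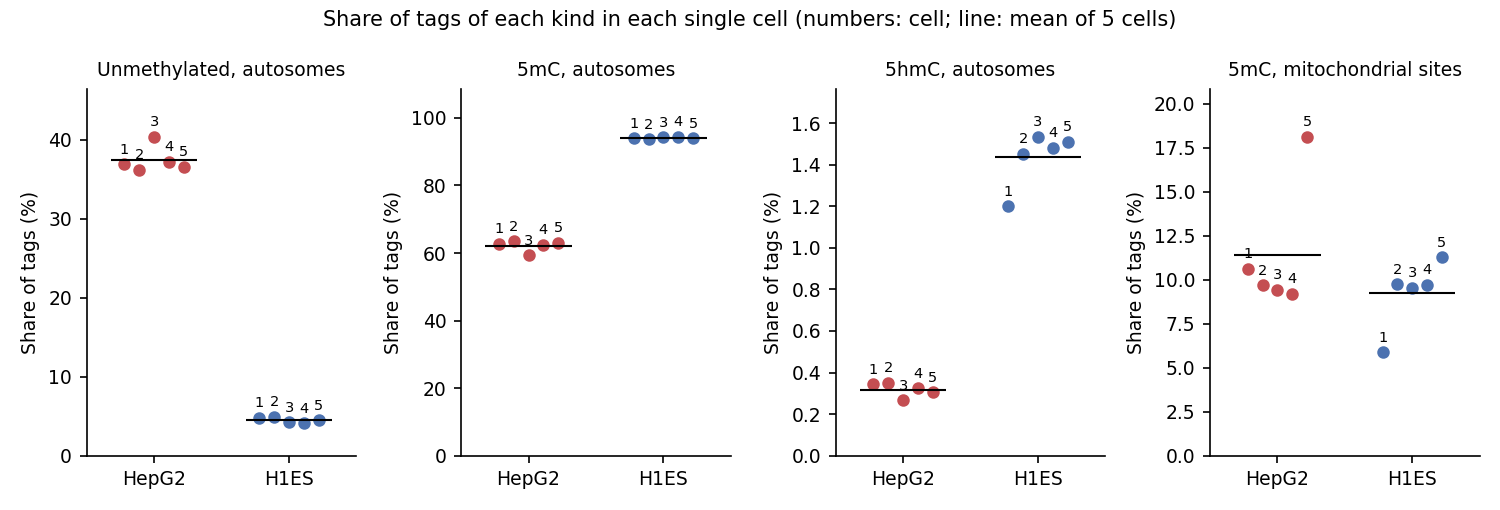
Share of tags of each kind (percent, vertical axes) in each single cell, with HepG2 left of H1ES; points are cells numbered 1 to 5 and black lines are means of 5 cells. HepG2 cells lie between 36.2% and 40.4% unmethylated and H1ES cells between 4.12% and 4.91%, and HepG2 cell 5 stands at 18.1% 5mC on mitochondrial sites.

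The gap in mean unmethylated share between the lines lay outside CCGG clusters. Such means do not tell whether the same sites were unmethylated in both lines. Sites were classed by the number of other CCGG within 500 bp on either side. At isolated sites (at most 1 other) the unmethylated share averaged 38.9% in HepG2 cells (37.3% to 42.2%) and 2.05% in H1ES cells (1.69% to 2.39%). At crowded sites (10 or more others), which lie mostly in CpG islands, it averaged 61.8% in HepG2 cells (59.2% to 63.5%) and 59.3% in H1ES cells (58.4% to 60.2%), and the ranges overlapped. Isolated sites were thus less often unmethylated than crowded ones in both lines, and H1ES cells were almost fully modified there. Crowded sites were sparsely read in both lines, with a tag at 4.04% of them in the mean HepG2 cell and 3.70% in the mean H1ES cell, against 38.8% and 39.2% of isolated sites.

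Over the genome in 1 Mb bins, the 5mC share of HepG2 cells differed greatly from place to place, while that of H1ES cells was evenly high. Bins with at least 20 tags in each of the 10 cells numbered 2720. Of these, 2282 (83.9%) were lower in HepG2 by at least 20 points and 0 (0%) were higher by as much. In 2718 (99.9%) every HepG2 cell was below every H1ES cell. The median bin had 56.7% 5mC in HepG2 and 94.95% in H1ES. Bins ran from 20.7% to 93.5% in HepG2, with an SD over bins of 16.7 points, and from 73.5% to 99.4% in H1ES, with an SD of 2.62 points. In HepG2, 673 bins were under 40%, 843 at 40% to 60%, 1053 at 60% to 80% and 151 at 80% or more, while in H1ES 7 bins were at 60% to 80% and 2713 at 80% or more.

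**Figure D2:**
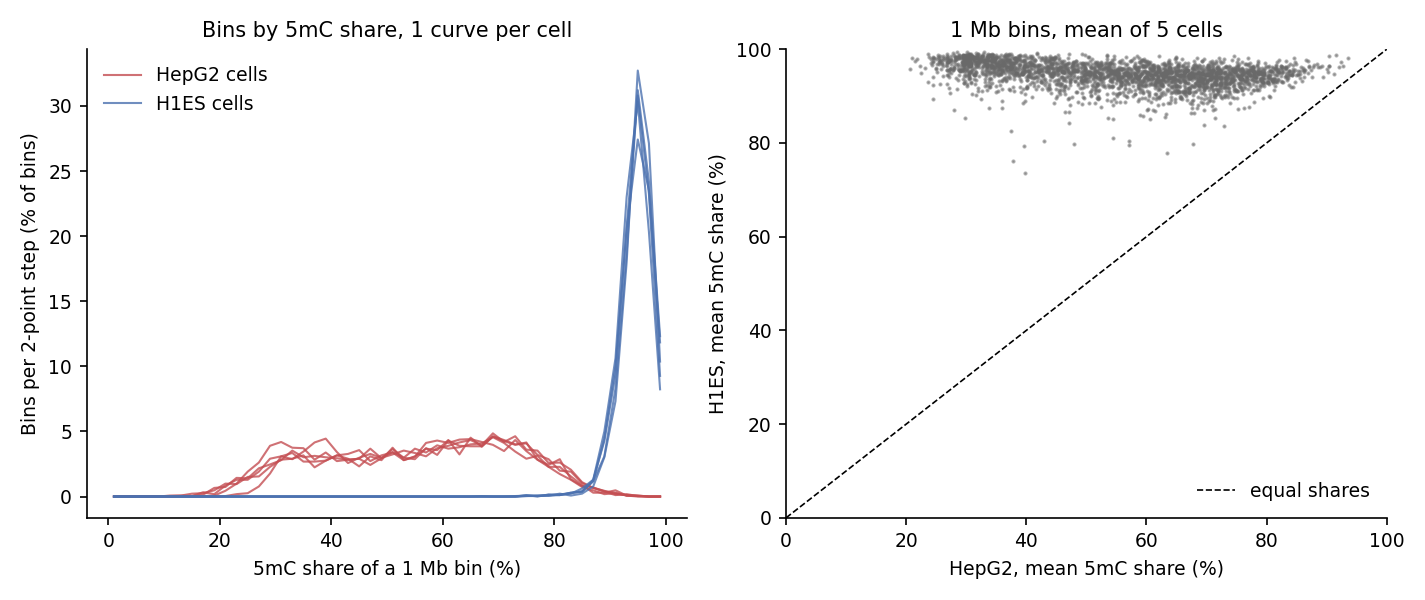
Left, distribution of the 5mC share of 1 Mb bins (percent, horizontal axis) as percent of bins per 2-point step, 1 curve per cell; right, mean 5mC share of each bin in HepG2 (horizontal) and in H1ES (vertical), with the dashed line at equal shares. HepG2 cells spread over 20.7% to 93.5% in the bin means, H1ES cells pile up near 94.95%, and no bin mean of HepG2 exceeds that of H1ES.

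The bin with the largest difference, chromosome 9 from 29000001 to 30000000, holds part of LINGO2, a neuronal membrane protein gene. Its 5mC share was 21.4%, 9.76%, 19.6%, 23.3% and 30.7% in HepG2 cells 1 to 5, against 98.3%, 97.9%, 97.7%, 98.5% and 98.1% in H1ES cells. The next were chromosome 18 from 38000001 (21.4% in HepG2, 97.5% in H1ES) and chromosome 10 from 83000001 (21.9% and 97.9%), neither with a coding gene, then chromosome 4 from 115000001 with NDST4, a heparan sulfate enzyme gene (23.6% and 98.9%), and chromosome 18 from 43000001 with RIT2 and SYT4, genes of neuronal signalling and vesicle release (20.7% and 95.8%). These 5 bins hold 0 to 2 coding genes each. The smallest differences were in bins with more genes, 3 to 8 each. Chromosome 22 from 28000001, with XBP1, a factor of the secretory stress response, and CHEK2, a checkpoint kinase gene, had 91.3% in HepG2 and 94.8% in H1ES. Chromosome 16 from 72000001, with HP, the haptoglobin gene of liver, and ZFHX3, had 92.8% in HepG2 and 96.3% in H1ES, and is 1 of the 2 bins in which the cells of the lines overlapped.

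Which bins were low was shared by the HepG2 cells. Over the 2720 bins, the Pearson correlation of 2 cells' 5mC shares was 0.919 to 0.983 in the 10 HepG2 pairs and 0.726 to 0.816 in the 10 H1ES pairs. In the 25 pairs of a HepG2 and an H1ES cell it was -0.328 to -0.255, so bins low in HepG2 were not the low bins of H1ES. With bins classed by HepG2 5mC, the mean H1ES 5mC was 96.3% under 40%, 94.5% at 40% to 60%, 93.7% at 60% to 80% and 94.997% at 80% or more. Neighbouring bins are not independent and every cell enters several pairs, so these coefficients are descriptions. The spread from cell to cell was near that of tag counting alone. The median SD over the 5 cells was 3.26 points in HepG2, where counting gives 3.32, and 1.18 points in H1ES, where counting gives 1.24. The SD was above that of counting in 53.7% of bins in HepG2 and 46.8% in H1ES. With 5 cells a median SD tends to fall below the counting SD, which also takes tags as independent. Whether there is a small excess over counting therefore cannot be told from these values.

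A few bins varied much more than counting gives. In HepG2 the largest excess was on chromosome 5 from 20000001, with the cadherin gene CDH18, at 10.4%, 45.6%, 28.5%, 28.6% and 37.0% in cells 1 to 5, an SD of 13.04 points where counting gives 4.89. On chromosome 1 from 71000001, with NEGR1, a neuronal adhesion gene, the HepG2 cells stood at 15.4%, 29.3%, 34.4%, 48.2% and 44.5%. On chromosome 18 from 30000001, with the desmosomal cadherin gene DSC3, HepG2 cell 2 stood at 55.6% and the other 4 at 25.6% to 33.5%. H1ES cells in these 3 bins lay between 93.9% and 100%. The largest excesses in H1ES were on chromosome 22 from 12000001 (82.5% to 97.4%), chromosome 12 from 37000001 (88.7% to 100%) and chromosome 11 from 50000001 (82.7% to 96.3%), bins without a coding gene. Since these were the largest of 2720, some excess would be seen among them in any case.

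The modification 5hmC was lower in HepG2 almost throughout. In 2465 of 2720 bins (90.6%) the HepG2 mean was under 0.5 of the H1ES mean, and in 9 it was over 2-fold. The median bin had 0.275% in HepG2 and 1.33% in H1ES. In HepG2, 5hmC was lowest where 5mC was lowest, at 0.178% in bins under 40% 5mC, 0.262% and 0.352% in the next classes and 0.440% in bins of 80% or more. In H1ES the same 4 classes had 1.13%, 1.38%, 1.44% and 1.29%. The classes were set by HepG2 5mC itself, and as a share of modified tags, a scale added after the data were seen, 5hmC was nearly level over them in HepG2, at 0.539%, 0.515%, 0.505% and 0.523%, against 1.16%, 1.44%, 1.51% and 1.34% in H1ES. The bin with the most 5hmC in H1ES, chromosome 18 from 48000001, with CTIF, ZBTB7C and SMAD7, an inhibitor of TGF-beta signalling, had 3.03% there and 0.467% in HepG2. That bin was picked after its values were seen.

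By gene, the 5mC share was much lower in HepG2 in some of the measured genes and close to that of H1ES in most others. Of 19122 autosomal coding genes, 3459 had at least 20 tags in every cell, mostly long ones (median length 128444 bp, against 24490.5 bp for all). The 5mC share over the gene was lower in HepG2 by at least 20 points in 1381 (39.9%) and higher in 1 (0.0289%). Every HepG2 cell was below every H1ES cell in 1837 genes (53.1%), above in 10 (0.289%), and 1612 overlapped. The median difference over genes was -8.83 points.

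The 12 largest differences among genes whose cells did not overlap lay between -73.0 and -76.4 points. SH3GL3, which encodes an endophilin of vesicle recycling, had 11.5%, 20%, 29.2%, 21.4% and 25.2% 5mC in HepG2 cells 1 to 5, against 98.3%, 98.4%, 96.7%, 96.1% and 100% in H1ES cells. DOCK2, a guanine nucleotide exchange factor gene of blood cells, had 16.7%, 16.3%, 22.8%, 14.3% and 28.6% in HepG2 cells, against 98.2%, 93.9%, 95.3%, 95.6% and 96.0% in H1ES cells. In both genes every HepG2 cell lay far below every H1ES cell. Several of the others are known from neurons. GRIK3, a kainate receptor subunit, averaged 17.2% in HepG2 and 92.8% in H1ES, and SEMA5A, an axon guidance protein, averaged 21.6% and 97.6%. LRRC7, a postsynaptic scaffold, averaged 21.1% and 96.4%. The calcium channel subunit gene CACNA2D1 averaged 22.9% and 97.1%, and the muscarinic receptor gene CHRM3 averaged 24.2% and 97.3%. NKAIN2 averaged 23.7% in HepG2 and 97.7% in H1ES, and STXBP5L, a regulator of exocytosis, averaged 25.2% and 98.2%. The other 3 were SRD5A2, a steroid reductase (18.6% and 94.3%), DNAH7, an axonemal dynein (22.2% and 96.9%), and RAB38, a small GTPase of pigment organelles (22.9% and 97.1%).

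The 10 genes in which every HepG2 cell was above every H1ES cell were led by GATA4, a factor of heart and endoderm and the only gene past 20 points. It had 76.9%, 84.6%, 83.1%, 84.6% and 83.5% 5mC in HepG2 cells 1 to 5, against 64.2%, 62.3%, 65.7%, 62.0% and 51.6% in H1ES cells, a difference of 21.4 points. NFIX, a nuclear factor gene, had 93.2%, 91.1%, 92.5%, 93.0% and 89.7% in HepG2 cells, against 85.3%, 80.5%, 80%, 76.9% and 73.9% in H1ES cells. The differences of the other 8 were 2.03 to 7.43 points. They were FGFR1, a growth factor receptor (94.1% in HepG2, 86.6% in H1ES), the chromatin remodeller gene BPTF (96.5% and 90.02%), the histone demethylase gene KDM4A (93.9% and 87.4%), STAT3, a transducer of cytokine signals (99.0% and 92.8%), EVC (97.9% and 92.6%), MLLT6 (90.4% and 85.8%), NPHP4 (97.3% and 94.5%) and COG5 (97.3% and 95.2%). With overlap allowed, the next by size were RUVBL1 (94.1% in HepG2, 85.1% in H1ES) and PRR12 (95.9% and 87.9%). These small differences rest on few tags, 21 to 75 per gene in the shallowest cell. Among 3459 measured genes, some would also separate in this way by chance, and whether the 10 exceed that was not tested.

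Gene lists by function differed widely (see the plot of gene lists). Their counts stand beside 39.9% lower and 0.0289% higher over all genes, and beside the median of -8.83 points. Lists and members were chosen with earlier results of these data known, so their counts are descriptions only and give no separate support. Of 58 long neural genes, 57 were measured, all 57 were lower by at least 20 points, and the median gene had 31.5% in HepG2 and 96.1% in H1ES. RBFOX3, a neuronal splicing factor gene, had 19.4%, 26.9%, 23.5%, 22.5% and 29.9% in HepG2 cells, against 95.8%, 92.7%, 95.3%, 94.3% and 95.03% in H1ES cells. Its relative RBFOX1 averaged 29.9% and 96.6%, the cadherin CDH4 averaged 33.0% and 95.9%, and the sorting receptor SORCS2, at 58.7% and 96.2%, stood higher in HepG2. Of 60 long genes that most cell types express, 54 were measured, 5 were lower and 0 higher, with a median of 94.8% in HepG2 and 96.5% in H1ES. RPTOR, a subunit of the growth regulator mTORC1, had 96.8% to 97.3% in HepG2 cells, against 95.01% to 98.2% in H1ES cells, and the ranges overlapped. MAD1L1, of the spindle checkpoint, averaged 97.5% in HepG2 and 98.3% in H1ES. Genes of like length in these lists thus differed widely in HepG2 and little in H1ES.

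Among 15 measured blood genes, 11 were lower and 0 higher (median difference -46.8 points). PRKCB, a protein kinase of lymphocytes, averaged 28.2% in HepG2 and 95.6% in H1ES, CBFA2T3, a corepressor of blood progenitors, averaged 32.3% and 95.9%, and PLCG2, a phospholipase of B cell signalling, averaged 43.2% and 94.6%. VAV2, which many tissues express, averaged 95.3% and 95.8%. Among 7 germline and cancer-testis genes 6 were lower and 0 higher (median difference -46.2 points), from ACTL8 (28.4% in HepG2, 96.9% in H1ES) to PIWIL2, a germline small RNA factor (83.9% and 97.3%). Among 11 imprinted genes 3 were lower and 0 higher, with KCNQ1, a potassium channel gene whose locus is imprinted, at 47.9% in HepG2 and 94.8% in H1ES, and IGF2R, a receptor that clears IGF2, at 96.0% and 98.5%. The 8 measured genes of the DNA modification machinery included 0 lower and 0 higher. DNMT1 averaged 94.7% in HepG2 and 96.6% in H1ES, TET1 averaged 96.0% and 97.1%, DNMT3A 82.6% and 89.3%, and TET3 93.0% and 90.5%. Of 8 genes whose methylation has been described in liver cancer, 1 was lower and 0 higher over the gene, namely FHIT, in a fragile site, at 61.2% in HepG2 and 96.4% in H1ES. The only housekeeping gene measured, RAB7A, a GTPase of late endosomes, averaged 93.4% and 96.7%.

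Pluripotency genes were divided. TFCP2L1 (43.4% in HepG2, 95.9% in H1ES) and ESRRB (47.4% and 90.04%), factors of the pluripotent network, had lower 5mC over the gene in HepG2, while JARID2, a partner of Polycomb repressor complexes (96.2% and 94.9%), and DNMT3B (96.2% and 94.6%) overlapped between lines. Of 6 hepatocyte regulators 0 were lower and 1 was higher, GATA4. RXRA, a nuclear receptor partner, averaged 83.7% in HepG2 and 97.0% in H1ES, NR1H4, the bile acid receptor, averaged 86.4% and 99.3%, HNF4A averaged 84.2% and 96.8%, and PPARA, a fatty acid sensor, averaged 94.2% and 96.6%. Of 5 measured liver enzymes and transporters 1 was lower, DPYD, which breaks down pyrimidines (76.6% and 98.9%), and none was higher.

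**Figure D3:**
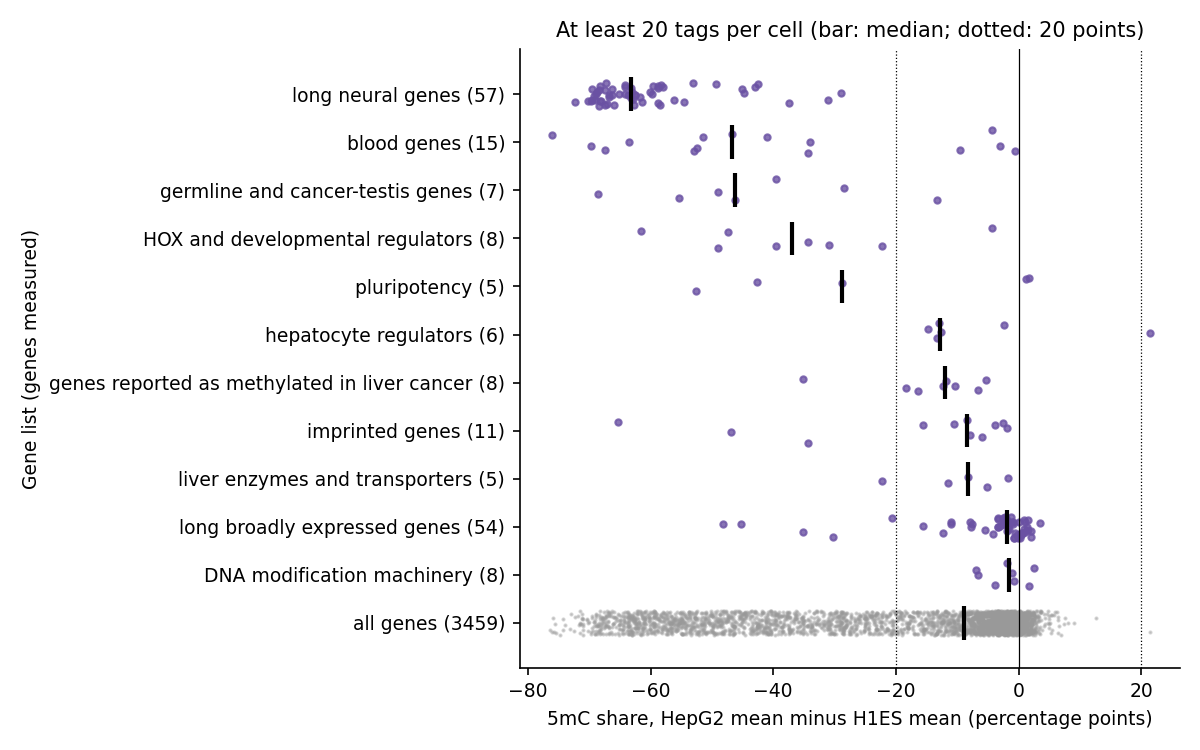
Difference of the mean 5mC share over the gene, HepG2 minus H1ES (percentage points, horizontal axis), for genes with at least 20 tags in every cell, 1 row per list with 5 or more measured genes and all 3459 genes at the bottom; each point is a gene, black bars are medians and dotted lines mark 20 points. The 57 long neural genes lie far left of 0 with a median of -63.2 points. The 54 long broadly expressed genes have a median of -1.80 points. The lists were chosen with earlier results of these data known.

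Short genes reached 20 tags only when the 5 cells of a line were summed. Of 15022 genes with at least 20 summed tags in each line, 5500 (36.6%) were lower in HepG2 by 20 points and 159 (1.06%) were higher. The developmental regulators departed from that split on the higher side. Of 44 with enough tags, 13 were lower, a share no larger than the 36.6% over all genes. A further 12 were higher, a larger share than the 1.06% over all genes. The lower ones were led by EBF1, a B cell factor, with 29.8% of 557 tags as 5mC in HepG2 and 90.3% of 555 in H1ES, and included PAX7, a factor of muscle stem cells (32.2% of 603 tags and 79.8% of 510). The higher ones were led by GATA2, a blood factor, with 75.4% of 114 tags in HepG2 and 19.1% of 89 in H1ES, TBX2, with 83.3% of 66 and 31.8% of 22, and ZIC1, a neural factor, with 64.4% of 45 and 14.6% of 41. Of 20 hepatocyte regulators, 0 were lower and 6 were higher. TBX3 had 73.9% of 88 tags in HepG2 and 16.9% of 65 in H1ES, FOXA2, a pioneer factor of endoderm, had 43.5% of 62 and 15.2% of 33, and GATA6 had 91.7% of 121 and 64.0% of 75. Of 31 genes of liver secreted proteins 8 were lower and 0 higher, led by SERPINA1, the antitrypsin gene (23.7% of 38 tags in HepG2, 94.4% of 36 in H1ES), and PLG, the plasminogen gene (46.3% of 95 and 100% of 69). The genes of this paragraph were picked after their values were seen, and most tags of the summed HepG2 values come from cells 3 and 5.

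A count of points treats the lines' overall levels as part of the difference. When the 5mC odds of each gene were divided by the genome-wide odds of its own line (log2, pseudocount 0.5), the median over the 3459 genes was 1.46 log2 units. On that scale 748 genes were lower and 1939 higher by at least 1 unit. The long neural genes remained on the low side, with a median of -2.29 and 51 of 57 lower. So did the blood genes at -1.13 and the germline genes at -1.47. All lists were chosen with earlier results of these data known. The signs turned for the long broadly expressed genes (2.59), the DNA modification machinery (2.72), the imprinted genes (2.27), the liver enzymes and transporters (2.22), the hepatocyte regulators (1.56), the liver-cancer methylation list (1.28), RAB7A (2.47), the developmental regulators (0.38) and the pluripotency genes (0.02).

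Gene starts, read as 1000 bp on either side of the start with summed tags, differed in both directions. Of 15100 genes with a listed start, 1139 had 20 or more tags in each line there. The unmethylated share was higher in HepG2 by at least 20 points at 422 (37.1%) and lower at 86 (7.55%), with medians of 68.2% in HepG2 and 50% in H1ES. The 6 largest differences upward included liver genes. F2, which encodes prothrombin, gave 22 unmethylated of 22 tags (100%) in HepG2 cells, against 0 of 20 in H1ES cells, which allows a share of up to 15%. UROC1, an enzyme of histidine breakdown in liver, gave 21 of 21 tags in HepG2, against 1 of 20 (5.00%) in H1ES. SLC25A34 gave 35 of 36 (97.2%, exact 95% interval 85.5% to 99.9%) in HepG2, against 1 of 30 (3.33%) in H1ES. The others were ARHGAP45 (97.1% in HepG2, 6.25% in H1ES), TTC34 (91.7% and 0%) and SIGLEC8, a lectin of blood cells (87.1% and 0%). The largest differences downward were HAS3, with 0 unmethylated of 32 tags in HepG2, which allows up to 9.38%, against 23 of 26 (88.5%) in H1ES, and GPAM, with 1 of 29 (3.45%) against 21 of 24 (87.5%). ULBP2, a ligand of an immune receptor, had 5.41% in HepG2 and 81.8% in H1ES, and SEMA4A had 18.2% and 90%. BRF1, a factor of RNA polymerase III, and BTBD6 share their windows and had 4% in HepG2 against 81.5% in H1ES and 5.56% against 75.9%.

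The starts of marker genes were read against the line labels, and most but not all differed in the direction of the labels. Of all starts with enough tags, 37.1% were higher in HepG2 by at least 20 points and 7.55% lower. A higher unmethylated share in HepG2 is thus common among starts of any kind. Among hepatocyte markers, HNF4A gave 37 unmethylated of 44 tags (84.1%, 69.9% to 93.4%) in HepG2, against 0 of 30 in H1ES, which allows up to 10%, and its second listed start gave 19 of 27 (70.4%) against 0 of 15. APOH, a plasma apolipoprotein gene, gave 24 of 31 (77.4%) in HepG2 and 0 of 24 in H1ES. ITIH3, a plasma protease inhibitor gene, gave 23 of 25 (92.0%) and 2 of 24 (8.33%). Of the 3 hepatocyte regulators with enough tags, HNF4A and CREB3L3 (84% of 25 tags in HepG2, 4% of 25 in H1ES) were more often unmethylated in HepG2, and ATF5 less often (26.9% of 26 and 47.6% of 21). With under 20 tags, the starts of SERPINA1 gave 9 of 19 and 13 of 15 in HepG2, against 0 of 17 and 0 of 16 in H1ES. Among pluripotency markers, ZFP42 gave 5 of 28 (17.9%) unmethylated in HepG2 and 12 of 20 (60%) in H1ES, and with under 20 tags L1TD1 gave 5 of 19 and 10 of 16, DPPA4 0 of 2 and 5 of 6, and NANOG 0 of 4 and 1 of 3. LIN28B was unmethylated in both lines, with 10 of 11 and 10 of 10 at the start with more tags. ALB and AFP had no tag there, and APOA1, APOC3, TTR, POU5F1 and PRDM14 were not read at their starts.

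Among 514 genes with at least 100 tags in every H1ES cell, the mean 5hmC share was lower in HepG2 in 500. The 5 with the most 5hmC in H1ES were GRM4, a glutamate receptor gene (0.194% in HepG2, 3.91% in H1ES), the neuronal adhesion gene DSCAML1 (0.270% and 3.60%), the receptor kinase gene GRK5 (0.652% and 3.53%), ECE1, an enzyme that matures endothelin (0.204% and 3.27%), and CTIF, a factor of translation (0.546% and 3.25%). The value of GRM4 rests on H1ES cell 5, at 9.35%; without that cell its H1ES mean was 2.56%, below the other 4. The HepG2 values of the 5 genes rest on 1 to 11 tags of 5hmC each. Their 5mC differed in HepG2, from 32.5% in GRM4 and 48.4% in DSCAML1 to 85.7% in ECE1, 89.5% in GRK5 and 94.3% in CTIF. Low 5hmC in HepG2 was thus seen both where 5mC was low and where it was high.

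Pairs of cells were then compared at sites tagged in both. Agreement is the chance that 1 tag drawn from each cell is of the same kind, and kappa rescales it so that 0 is the value expected if sites were unrelated and 1 is full agreement. Within HepG2 the 10 pairs agreed at 79.6% on average (78.6% to 80.2%), where 53.1% would be expected, a kappa of 0.565 (0.551 to 0.575). Within H1ES the 10 pairs agreed at 94.2% (93.8% to 94.5%), where 89.1% would be expected, a kappa of 0.467 (0.450 to 0.479). Between lines the 25 pairs agreed at 62.1%, where 59.2% would be expected, a kappa of 0.071 (0.061 to 0.080). The 3 sets of kappa values did not overlap. A pair rested on 160763 to 810068 sites within HepG2, 277846 to 484999 within H1ES and 189394 to 684056 between lines.

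**Figure D4:**
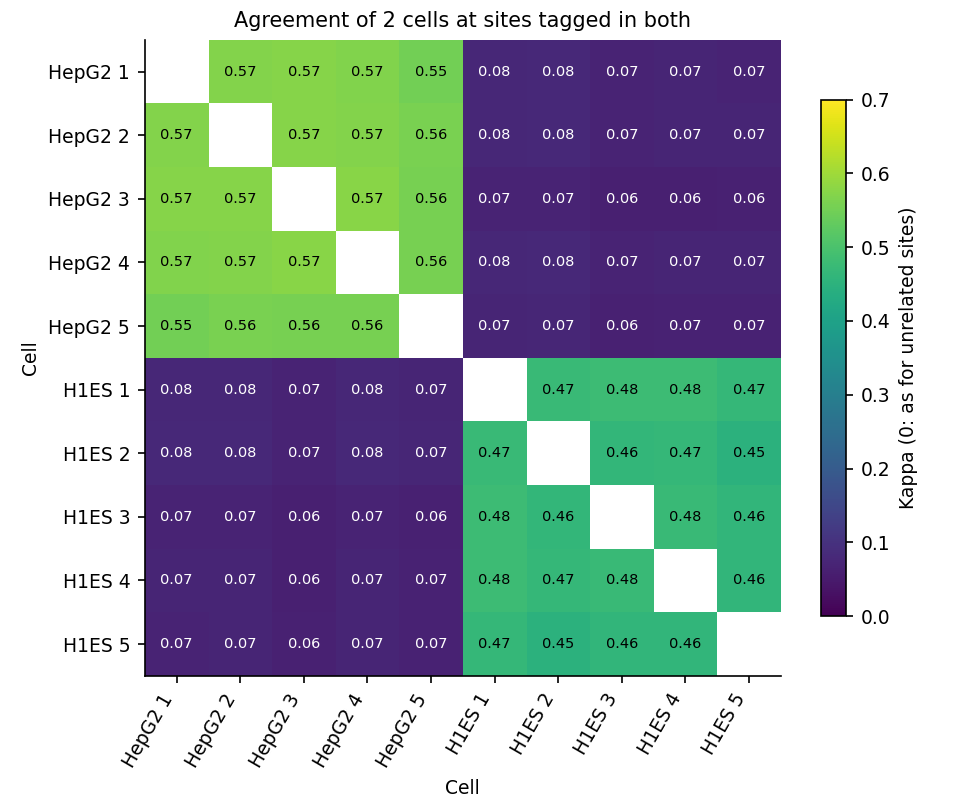
Kappa for each of the 45 pairs of cells at sites tagged in both, with HepG2 cells first on both axes; the diagonal is blank and brighter colours are higher values. Pairs within HepG2 lie between 0.551 and 0.575, pairs within H1ES between 0.450 and 0.479 and pairs between lines between 0.061 and 0.080.

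The sites behind the disagreement were of 1 main kind. Between lines, 34.7% of sites were unmethylated in the HepG2 cell and 5mC in the H1ES cell, and 1.38% were the reverse. Where the H1ES tag was unmethylated, the HepG2 tag was unmethylated in 69.6% (66.8% to 72.2% over the 25 pairs). Where the H1ES tag was 5mC, it was unmethylated in 37.0% (35.3% to 39.9%), and where the H1ES tag was 5hmC, in 43.5% (41.7% to 46.4%). Sites free of methylation in an H1ES cell were thus mostly free in HepG2 as well. At crowded sites kappa averaged 0.580 within HepG2, 0.640 within H1ES and 0.411 between lines, and at isolated sites 0.568, 0.244 and 0.026. The cells of the 2 lines therefore resembled each other at crowded sites, though less than cells of 1 line did. At isolated sites the unmethylated shares of the lines are unequal, 38.9% in HepG2 and 2.05% in H1ES on average. Such shares keep kappa low however well the sites match, so its low value there cannot tell how far they do. The agreement of HepG2 cells with each other differed little between these classes.

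In both lines, kappa was lowest in the bins with the least 5mC in HepG2. With bins classed by the HepG2 cells outside the pair, mean kappa within HepG2 was 0.399 under 40% 5mC, 0.518 at 40% to 60%, 0.556 at 60% to 80% and 0.550 at 80% or more. Within H1ES it was 0.358, 0.441, 0.494 and 0.499. Between lines it was 0.006, 0.039, 0.119 and 0.181.

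Single cells also showed how far the tags of 1 cell agree. At sites with 2 or more tags in the same cell, the kappa of 2 of its tags was 0.609, 0.609, 0.608, 0.606 and 0.549 in HepG2 cells 1 to 5, against 0.523, 0.483, 0.483, 0.484 and 0.483 in H1ES cells. At those of the sites also tagged in another cell of the line, the kappa with that cell averaged 0.546 to 0.565 in HepG2 and 0.414 to 0.442 in H1ES. Agreement itself differed less, with means of 81.4% in the same cell and 79.7% with another in HepG2, and 94.7% and 94.4% in H1ES. The 2 sets of sites are not the same. In every cell but HepG2 cell 5, which also had the highest mitochondrial 5mC share, 2 tags of 1 cell agreed more than tags of 2 cells. The part of that share in its lower value was not tested. Of sites with exactly 2 tags, 16.8% to 20.7% in HepG2 cells carried 1 unmethylated and 1 5mC tag, where 44.6% to 48.5% would if tags were unrelated, against 2.28% to 3.05% in H1ES cells, where 7.30% to 8.79% would. Whether such a pair of tags came from 2 chromosome copies cannot be told from these data. Whether 2 tags of 1 kind came from 1 DNA molecule cannot be told either.

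Neighbouring sites agreed beyond the expected value over far longer distances in HepG2. For sites up to 100 bp apart in the same cell, mean kappa was 0.487 in HepG2 and 0.608 in H1ES. At 100 to 1000 bp it was 0.321 in HepG2 and 0.363 in H1ES, at 1000 to 10000 bp 0.248 and 0.042, and at 10000 to 100000 bp 0.227 and 0.010. Taking the neighbour from another cell of the line changed little beyond 100 bp, with 0.319, 0.247 and 0.227 in HepG2 and 0.360, 0.042 and 0.009 in H1ES. Up to 100 bp it gave 0.387 in HepG2 and 0.483 in H1ES. Tags of the same cell and of another cell thus parted only up to 100 bp, among the 4 classes. The long-range kappa of HepG2 was seen between cells as well. Agreement itself at 10000 to 100000 bp in the same cell was 62.9% in HepG2, where 51.9% would be expected. In H1ES it was 90.5%, where 90.4% would be expected.

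**Figure D5:**
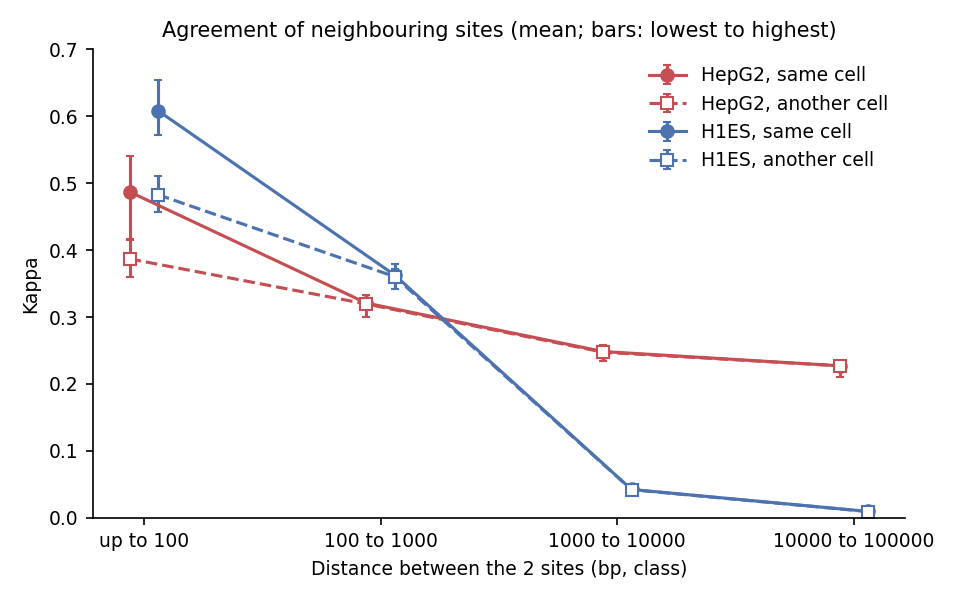
Mean kappa of 2 neighbouring sites (vertical axis) by class of distance in bp (horizontal axis), for tags of the same cell (filled circles) and of another cell of the line (open squares), HepG2 in red and H1ES in blue; bars run from the lowest to the highest cell or pair. At 10000 to 100000 bp HepG2 stays at 0.227 while H1ES is at 0.010, and same cell and another cell part only up to 100 bp.

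For 5hmC, tags recurred at the same sites in other cells more often than its share. Within HepG2, a tag drawn from a second cell was 5hmC in 0.972% (0.671% to 1.48% over 10 pairs) of sites where the first cell's tag was 5hmC, against a share of 0.310% over all shared sites. Within H1ES the values were 4.25% (3.10% to 4.87%) and 1.43%. Those shares include unmethylated sites. Where the first cell's tag was 5mC, the second was 5hmC in 0.401% in HepG2 and 1.35% in H1ES. In both lines most such sites were 5mC in the second cell, 81.4% in HepG2 and 88.7% in H1ES. Values within a cell use only sites with 2 or more tags in it, unlike those between cells. Beside a 5hmC tag, a second tag was 5hmC in 7.56%, 7.28%, 3.21%, 4.87% and 2.98% of cases in HepG2 cells 1 to 5. All lie above the values between HepG2 cells, and the deepest cells, 3 and 5, have the lowest. In H1ES cells 1 to 5 it was 5.47%, 5.00%, 4.98%, 5.19% and 3.77%. Cells 1 to 4 lie above the highest value between H1ES cells, 4.87%, by a small margin, and cell 5 lies inside that range.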

How the data were processed

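Tags at CCGG sites were analysed in 5 single HepG2 and 5 single H1ES cells. The submitters' processing notes list hg38, Bowtie2 2.3.4.1, cutadapt 1.5 and UMI-tools 0.5.4, and how tags were counted is not given in the sources used here. The deposited tables list 2317745 sites with 3 values as a fraction of tags and 1 count of tags per site. Fraction times count was whole within 0.00097, which gave back the tags by kind. The tables have no header. The kind called unmethylated is the one that prevails on mitochondrial sites and at crowded sites, and 5hmC is the rarer of the other pair, on which every 5hmC value rests.

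Shares were computed per cell on autosomes, by site density, 1 Mb bin, coding gene (RefSeq, GRCh38.p14) and 1000 bp on either side of listed starts, with a minimum of 20 tags (Python 3.11.15, NumPy 2.4.6, SciPy 1.17.1, pandas 2.3.3). Intervals are Clopper-Pearson at 95%, and a count of 0 allows 3 of the total. Differences of 20 points were counted. Neighbouring sites were paired at 16 set steps of up to 75 listed sites. The 12 largest differences each way among genes whose cells did not overlap (overlap allowed where fewer remained), the 5 genes with most 5hmC, up to 4 members per list with the most tags in the shallowest cell, 5 bins of each kind, 6 starts each way and the markers were named. The members and lists were chosen with earlier results of these data known, and the mitochondrial check was added after the data were seen. No test over cells was made. The computation was tested on simulated data.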

Additional observations from a re-analysis of the deposited data

Results flagged for a closer look

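In 280 groups of 5 cells, 26 (9.29%) had a cell that stood apart, with a gap to the next cell over 0.71 of the group's range. Chance flags about 1 in 20 groups, and related measures of the same cell are counted separately.

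HepG2 cell 3 stood apart with 40.4% unmethylated and 59.3% 5mC tags over all autosomal sites, with 42.2% and 57.6% at isolated sites, and with 0.873 of the H1ES share of tags on chromosome 8. After division by the mitochondrial share, its unmethylated share over all autosomal sites was 44.6%, beside 44.8% in HepG2 cell 5. HepG2 cell 5 stood apart with 18.1% 5mC on mitochondrial sites and a kappa of 0.549 between 2 of its own tags. HepG2 cell 4 had 0.916% of its tags on mitochondrial sites, against 0.557% to 0.619% in the other 4. H1ES cell 1 had 1.20% 5hmC, 1.14% at isolated sites, and a kappa of 0.523 between its own tags. This H1ES cell also had the lowest mitochondrial 5mC share, 5.87%.

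Single genes with a cell apart in 5mC share rest on few tags per cell. In HepG2 they were GATA4 (76.9%, cell 1), LRIG1 (89.7%, cell 1), RAB7A (83.9%, cell 1), ESRRB (38.5%, cell 2), KCNQ1 (42.2%, cell 4) and CDH4 (36.6%, cell 5). In H1ES they were IGF2R (94.7%, cell 2), ECE1 (87.6%, cell 3), GATA4 (51.6%, cell 5) and EBF3 (79.5%, cell 5).

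Among the named 1 Mb bins, HepG2 cell 2 had 55.6% 5mC on chromosome 18 from 30000001, and HepG2 cell 5 had 28.1% on chromosome 12 from 37000001. In H1ES the bins were chromosome 11 from 50000001 (82.7%, cell 1), chromosome 5 from 139000001 (89.6%, cell 4) and chromosome 10 from 83000001 (95.9%, cell 5).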

How the results depend on the processing

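No paired analysis was possible because the cell numbers in the labels only count cells and no test was made. Of 71 settings other than leaving out a cell, 40 kept the value within the spread or count limit and 31 moved it. No difference in a genome-wide share changed sign. The difference in unmethylated share, 33.0 points, became 31.2 at sites with 2 or more tags, 36.8 at isolated sites, 37.4 after division by the mitochondrial share and 40.4 with equal weight for each bin, and that in 5mC, -31.8 points, became -30.1, -35.8, -36.3 and -39.4. The last 2 settings were chosen after seeing the data. In bins under 40% 5mC, HepG2 cells 1, 2 and 4 had 9.06% to 10.4% of their tags, HepG2 cells 3 and 5 had 11.5% to 13.4% and H1ES cells 13.4% to 13.7%. Relative to genome-wide odds, 1041 bins were lower and 355 higher by 1 log2 unit, and 748 genes were lower and 1939 higher, which turned the majority of genes and their median (1.46 log2 units, against -8.83 points). With at least 10, 50 or 1 tags per cell, 2481, 424 and 5609 genes were lower and 8, 0 and 248 higher by 20 points; these settings change how many genes are measured. By 10 points 2 genes were higher, and by 30 points 0. Kappa within HepG2 was 0.690 at sites with 1 kind of tag in each cell, 0.653 by majority and 0.545 with 2 tags in both cells. Within H1ES these were 0.548, 0.544 and 0.387, with 0.601 for 2 kinds and 0.244 at isolated sites. Between lines kappa was 0.077, 0.061 with 2 tags and 0.026 at isolated sites. For these the cause was not tested.

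Leaving out each cell in turn gave 32.2 to 33.3 points for the unmethylated share, -32.2 to -31.1 for 5mC and -1.18 to -1.09 for 5hmC. It gave 2267 to 2301 bins and 1373 to 1395 genes lower, 0 bins and 0 to 1 genes higher (0 without H1ES cell 5), kappa of 0.562 to 0.571 within HepG2, 0.462 to 0.473 within H1ES and 0.070 to 0.073 between lines, and a median SD per bin of 2.998 to 3.32 points in HepG2 and 1.12 to 1.19 in H1ES. Depth limits single genes and starts: few short genes reach 20 tags per cell, and crowded sites are rarely tagged.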
